A study of Rattus norvegicus with 9 samples.

Results

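Integrin genes, 10 in all, 3 coding for β subunits (Itgb1, Itgb3, Itgb5) and 7 for α subunits (Itga1, Itga3, Itga5, Itga6, Itga7, Itga11, Itgav), were followed in cultured rat cells given energized structured water. They were chosen by name among 36856 RefSeq genes, with earlier results of these data known. All 10 passed the filter on low counts, as part of 14706 tested genes. The cells were H9c2(2-1), a myoblast line from embryonic heart of the BD1X rat, labelled wild type. RNA was sequenced from 9 libraries, 3 in each of 3 groups: cells given energized structured water (ESW), cells given control water (CW) and cells with no treatment (Control). Both waters were used at a dilution of 0.01 for 72 h with medium renewed daily, while Control cells were kept in normal growth medium. All groups come from 1 cell line, and the labels do not say whether the 3 libraries of a group were separate cultures, so every p-value reflects the variation among these libraries alone, which may be technical.

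Integrins are receptors made of 1 α and 1 β chain that span the cell membrane. Outside the cell they bind matrix proteins, and inside they are tied to actin through talin, kindlin and the proteins of adhesion sites. The α chain largely sets the ligand: α1 and α11 bind collagens, α3, α6 and α7 bind laminins, α5 binds fibronectin and αv binds proteins with an RGD motif such as vitronectin. β1 can pair with all of the α chains studied here, whereas β3 and β5 pair with αv. In muscle α7β1 is the main laminin-binding integrin of the mature fibre, and α5β1 and α6β1 are prominent on myoblasts.

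Library totals ran from 26748673 to 48574618 estimated reads, so that even Itgb3, the lowest of the 10 genes, had 956 reads over the 9 libraries, and Itgb1 had 817353. On a principal component analysis the first component held 24.1% of the variance, with ESW at -28.7 to -8.79, CW at 15.4 to 16.5 and Control replicates 2 and 3 at 7.08 and 12.3. Control replicate 1 stood apart from these, at -10.9 within the ESW range, and was lowest on the second component, at -22.9. In the check of cell identity 4 of 5 myoblast markers and 4 of 5 fibroblast markers reached 1 CPM (counts per library size, scaled by TMM, used to compare groups) in at least 1 library, whereas Myf5 did not exceed 0.0568 CPM. Of the 5 platelet and 5 leukocyte markers 0 reached 1 CPM in any library, and the leukocyte integrin gene Itgam had 1 read in all. Itgax, also a leukocyte integrin gene but not among these markers, had 695 to 1180 reads per library on its leading transcript. Of the 5 cardiac muscle markers only Tnni3 reached it, with at most 1.22 CPM, and Nppa stayed at or below 0.0816 CPM. Of the endothelial markers Tek alone reached it, with at most 1.34 CPM, and of the epithelial markers Krt8 alone, at 49.2 to 64.6 CPM, while Epcam did not exceed 0.0542 CPM.

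The levels of the 10 genes spanned 3 orders of size. Levels of different genes are compared here in TPM, which is scaled by effective transcript length. The deposited effective length was longer than the transcript itself for 17672 to 24491 transcripts per library, and all levels, shares and ratios in TPM below depend on it. Itgb1 was highest, with a mean over the 9 libraries of 1150.4 ± 71.0 TPM (SD), which lay above 99.1% of tested genes. Itgb5 followed with 345 ± 26.5 TPM and Itga11 with 205 ± 19.8 TPM. Itga5 had 169 ± 10.9 TPM, Itgav 138 ± 9.82 TPM and Itga7 77.4 ± 7.17 TPM. Itga3 lay at 41.9 ± 3.97 TPM, Itga6 at 32.0 ± 2.27 TPM and Itga1 at 20.2 ± 1.37 TPM. Itgb3, the β chain of the vitronectin receptor αvβ3 and of the platelet receptor for fibrinogen, was near the floor at 1.01 ± 0.156 TPM. The order was the same in 9 of 9 libraries for every neighbouring pair. The range over libraries overlapped for a single pair of neighbours, Itga11 (184 to 237 TPM) and Itga5 (160 to 188 TPM), although Itga11 was above Itga5 within each library.

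**Figure D1:**
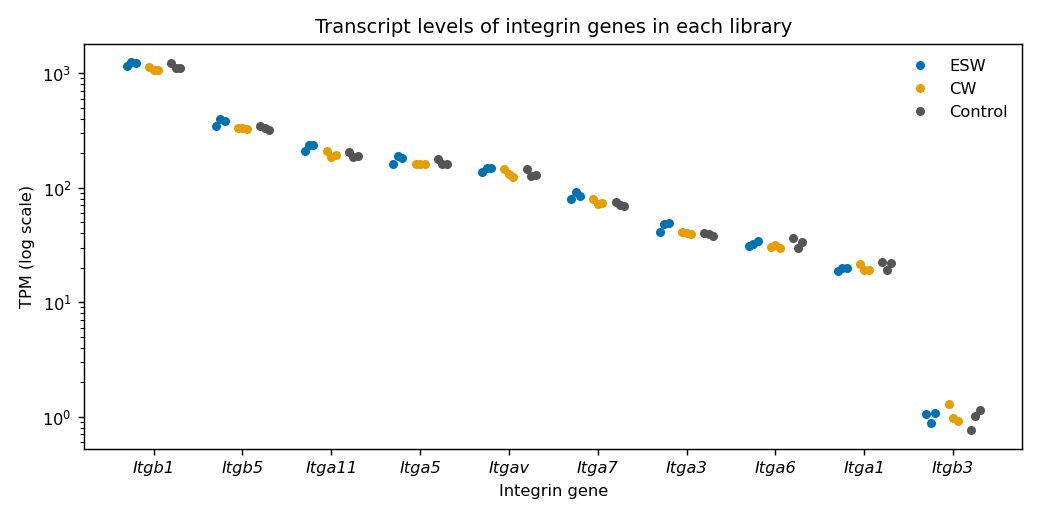
Level of each integrin gene in each library, in TPM on a logarithmic axis, with genes ordered by their mean; each point is 1 library of ESW, CW or Control. Itgb1 leads at 1067 to 1245 TPM, Itga5 and Itga11 lie next to each other, and Itgb3 is lowest at 0.758 to 1.29 TPM.

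Together the 10 genes held 96.6% to 97.2% of the TPM of all 26 integrin subunit genes. Itgb1 made up 75.7% to 78.0% of the β subunit TPM and Itgb5 21.8% to 24.1%. The sum of the 8 β genes was 1.95 to 2.05 times that of the 18 α genes in every library, and Itgb1 alone was 1.49 to 1.58 times the α sum. Among the α chains the RGD-binding ones (Itga5, Itga8, Itgav) held 42.5% to 44.2% of the TPM, the collagen-binding ones (Itga1, Itga2, Itga10, Itga11) 29.1% to 31.1% and the laminin-binding ones (Itga3, Itga6, Itga7) 19.6% to 20.7%. These shares are of RNA, and the amounts of protein were not measured. In bulk RNA, fewer cells of a kind and less RNA per cell cannot be told apart.

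The comparison of ESW with Control asked which genes differ after the water treatment. The laminin receptor genes Itga7 and Itga3, the collagen receptor gene Itga11 and the vitronectin receptor gene Itgb5 were higher in ESW, each by 1.15-fold to 1.21-fold. The 3 ESW libraries lay above the 3 Control libraries for these 4 genes, a separation seen in 25.6% of all tested genes, 13.3% with ESW higher and 12.4% with ESW lower. The other 6 genes did not pass the test. Thus 4 of 10 were called higher and 0 lower by edgeR at an adjusted p under 0.05, where 8.04% of all tested genes were called, 4.76% higher and 3.28% lower. The median log2 fold change was 0.12 over the 10 genes and -0.01 over all tested genes. The 10 genes were chosen with earlier results known, and all but Itgb3 lay above at least 61.3% of tested genes in TPM. The background was not matched for choice or level, so these shares are only a description.

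Itga7, the α chain of a muscle laminin receptor, had 220, 231 and 223 CPM in ESW replicates 1 to 3, against 191, 185 and 182 CPM in Control replicates 1 to 3. The lowest ESW library was above the highest Control library. The log2 fold change was 0.27 (SE 0.04, edgeR adjusted p = 0.000465), with a 95% interval of 0.19 to 0.36. Itga3, the other laminin-binding chain that passed, had 145, 155 and 165 CPM in ESW, against 129, 131 and 127 CPM in Control. Its ESW libraries spread more widely than its Control libraries but did not meet them. The log2 fold change was 0.27 (SE 0.04, edgeR adjusted p = 0.00112), with a 95% interval of 0.18 to 0.36.

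Itga11, the α chain that binds fibrillar collagen on mesenchymal cells, had 841, 882 and 920.0 CPM in ESW, against 771, 717 and 751 CPM in Control. All ESW values exceeded all Control values, and the log2 fold change was 0.24 (SE 0.04, edgeR adjusted p = 0.00218). Itgb5, which pairs with αv to bind vitronectin, had 841, 877 and 883 CPM in ESW, against 767, 757 and 737 CPM in Control. Here too the groups were separate, and the log2 fold change was 0.20 (SE 0.04, edgeR adjusted p = 0.00183). Each of these 4 genes was called in all 17 alternative analyses, which included leaving out each library in turn and offsets for the average effective transcript length. Over these alternatives the log2 fold change of Itga7 ran from 0.23 to 0.29 and that of Itgb5 from 0.17 to 0.22.

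The 300-base start regions of the called genes are shown as the stretches from which these transcripts are annotated to begin. They are RefSeq sequences of the assembly GRCr8, from 250 bases before to 50 bases after the annotated start, on the strand of the gene. Capitals mark matches on either strand to the GC box (GGGCGG) or the TEAD motif (GGAATG). Itga3 is at chr10:80518852-80519151 on the minus strand, Itga11 at chr8:72041182-72041481 on the plus strand and Itgb5 at chr11:80449324-80449623 on the minus strand. The table held 7 of the 10 genes, without Itga7, Itga6 and Itgb3.
Itga3: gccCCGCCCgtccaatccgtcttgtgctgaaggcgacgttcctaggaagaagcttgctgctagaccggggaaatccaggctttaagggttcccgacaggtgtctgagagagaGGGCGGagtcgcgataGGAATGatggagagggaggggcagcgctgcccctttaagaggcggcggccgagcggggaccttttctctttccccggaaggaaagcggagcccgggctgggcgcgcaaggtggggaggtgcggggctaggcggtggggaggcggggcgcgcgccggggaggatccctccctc
Itga11: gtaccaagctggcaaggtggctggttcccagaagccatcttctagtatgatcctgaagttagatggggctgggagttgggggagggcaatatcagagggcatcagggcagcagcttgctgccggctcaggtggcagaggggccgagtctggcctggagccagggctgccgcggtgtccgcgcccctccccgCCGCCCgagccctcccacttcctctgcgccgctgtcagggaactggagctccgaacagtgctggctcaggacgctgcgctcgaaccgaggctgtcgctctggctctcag
Itgb5: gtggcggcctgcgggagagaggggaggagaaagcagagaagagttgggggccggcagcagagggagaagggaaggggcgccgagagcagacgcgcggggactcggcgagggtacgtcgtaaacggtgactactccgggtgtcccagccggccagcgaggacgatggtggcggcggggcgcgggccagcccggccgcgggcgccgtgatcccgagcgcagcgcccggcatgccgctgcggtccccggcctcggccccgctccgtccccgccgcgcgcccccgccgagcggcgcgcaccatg
Itga3 held 2 GC boxes and 1 TEAD motif, Itga11 held 1 GC box, and Itgb5 held neither. Among genes not called against Control, Itgb1 held 4 GC boxes and 1 TEAD motif, Itga5 and Itgav 2 GC boxes each, and Itga1 neither. The AP-1 motif (TGANTCA) and the CArG box of the serum response factor, searched on both strands as well, were found in 0 of the 7 regions. Among 33469 start regions of the same length 33.1% held the GC box, 14.2% the TEAD motif, 7.33% the AP-1 motif and 1.64% the CArG box. In none of the 7 regions did 2 different motifs overlap. These matches are descriptions of the letters and were not tested against the expression values.

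Among the genes that did not pass against Control, Itgb1, the shared β chain, had 2466, 2580.5 and 2552 CPM in ESW, against 2539, 2319 and 2327 CPM in Control. Control replicate 1 lay within the ESW range, and the other Control libraries lay below it. The log2 fold change was 0.08 (95% interval -0.00 to 0.16, edgeR adjusted p = 0.229). Without Control replicate 1 Itgb1 was called, at 0.12 (edgeR adjusted p = 0.0363). Itga5, the fibronectin receptor chain, showed the same arrangement, with 491, 527 and 536 CPM in ESW, against 506, 474 and 474 CPM in Control (log2 fold change 0.10, edgeR adjusted p = 0.156). Itgav, the αv chain, had 452, 474 and 477 CPM in ESW, against 484, 422 and 434 CPM in Control, where the highest of the 6 values was that of Control replicate 1 (log2 fold change 0.07, edgeR adjusted p = 0.464).

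Itga1 and Itga6 had negative values. Itga1, which binds collagen IV, had 96.2, 105 and 102 CPM in ESW, against 114, 97.7 and 109.6 CPM in Control, and the groups overlapped. The log2 fold change was -0.09 (95% interval -0.20 to 0.03, edgeR adjusted p = 0.355). Itga6, the third laminin-binding chain, had 108, 109 and 118 CPM in ESW, against 124, 103 and 116 CPM in Control. Its log2 fold change of -0.04 had a 95% interval of -0.15 to 0.08 (edgeR adjusted p = 0.748). Itgb3 had 2.87, 2.75 and 3.26 CPM in ESW, against 2.52, 2.44 and 3.04 CPM in Control, and at this low level the 95% interval ran from -0.20 to 0.48. In simulated libraries with 14504 genes in the fit, 55.2% of the genes given a 1.2-fold change in ESW against Control were called. Those genes were drawn from all levels of at least 1 CPM, so the rate is not that of any single gene here. The 95% intervals of Itga1 and Itga6 did not reach a 1.2-fold change in either direction. That of Itgb3 did, so that a change of this size could be missed there.

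**Figure D2:**
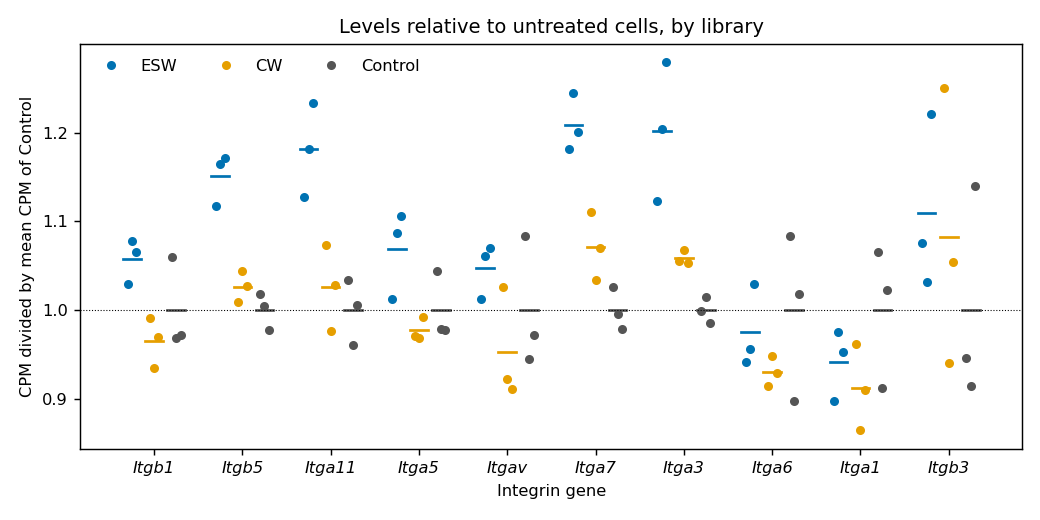
CPM of each integrin gene in each library divided by the mean of the 3 Control libraries; points are libraries and short bars are group means for ESW, CW and Control. For Itgb5, Itga11, Itga7 and Itga3 the ESW points lie above all Control points, whereas for Itgb1, Itga5, Itgav, Itga6, Itga1 and Itgb3 they overlap.

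The comparison of ESW with CW set the treated water against the control water. Itga11, Itgb5, Itga7 and Itga3 were again higher in ESW, by 1.12-fold to 1.15-fold, and Itgb1 was called as well. Of the 10 genes 5 were called higher and 0 lower by edgeR, where 8.14% of all tested genes were called, 4.15% higher and 3.99% lower. All 10 fold changes were positive, with a median log2 fold change of 0.13, against -0.00 over all tested genes. This comparison and that with Control share the ESW libraries and are given side by side, not as independent evidence. The limits given above on the choice and level of the 10 genes hold here as well.

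Itga11 had 841, 882 and 920.0 CPM in ESW, against 800.4, 728 and 768 CPM in CW, with a log2 fold change of 0.20 (SE 0.04, edgeR adjusted p = 0.0079). Itgb5 had 841, 877 and 883 CPM in ESW, against 759.9, 786 and 774 CPM in CW, with a log2 fold change of 0.16 (SE 0.04, edgeR adjusted p = 0.00828). For both genes all ESW libraries exceeded all CW libraries. Itga7 had 220, 231 and 223 CPM in ESW, against 206, 192 and 199 CPM in CW (log2 fold change 0.18, SE 0.04, edgeR adjusted p = 0.0104). Itga3 had 145, 155 and 165 CPM in ESW, against 136, 138 and 136 CPM in CW (log2 fold change 0.18, SE 0.04, edgeR adjusted p = 0.0143). Both were separate between these groups in CPM, whereas in TPM ESW replicate 1 of Itga3 (40.6 TPM) lay below CW replicate 1 (41.1 TPM). The third laminin-binding chain, Itga6, overlapped, with 108, 109 and 118 CPM in ESW, against 104, 108 and 106 CPM in CW.

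Itgb1 had 2466, 2580.5 and 2552 CPM in ESW, against 2375, 2238 and 2323 CPM in CW. The groups did not overlap, and the log2 fold change was 0.13 (SE 0.04, edgeR adjusted p = 0.0452). Itga5 had 491, 527 and 536 CPM in ESW, against 471, 469.5 and 481 CPM in CW, also without overlap, and missed the threshold at a log2 fold change of 0.13 (edgeR adjusted p = 0.0548). In TPM, however, ESW replicate 1 of Itga5 lay just below CW replicate 1. Itgav, with 452, 474 and 477 CPM in ESW, against 458, 412 and 407 CPM in CW, overlapped and had a log2 fold change of 0.14 (edgeR adjusted p = 0.102). In CPM the 3 libraries of the groups were separate for 6 of the 10 genes, all higher in ESW, and for 28.3% of all tested genes, 14.9% with ESW higher and 13.4% with ESW lower. Itga1, Itga6 and Itgb3 had log2 fold changes of 0.05, 0.07 and 0.04, with edgeR adjusted p from 0.498 to 0.901.

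Calls against CW changed when single libraries were left out. Leaving out ESW replicate 2 left 2 called integrin genes (Itgb5 and Itga11), and leaving out ESW replicate 3 left 1 (Itga7). Dropping the second CW library left Itgb5 as the 1 called gene, and dropping the third left 3 (Itgb5, Itga7 and Itga11). Itgb1 was called in 10 of 17 alternatives, with adjusted p from 0.0041 to 0.179, and was lost, among others, with DESeq2 size factors (edgeR adjusted p = 0.0519) and with the replicate number as a block (edgeR adjusted p = 0.0557).

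**Figure D3:**
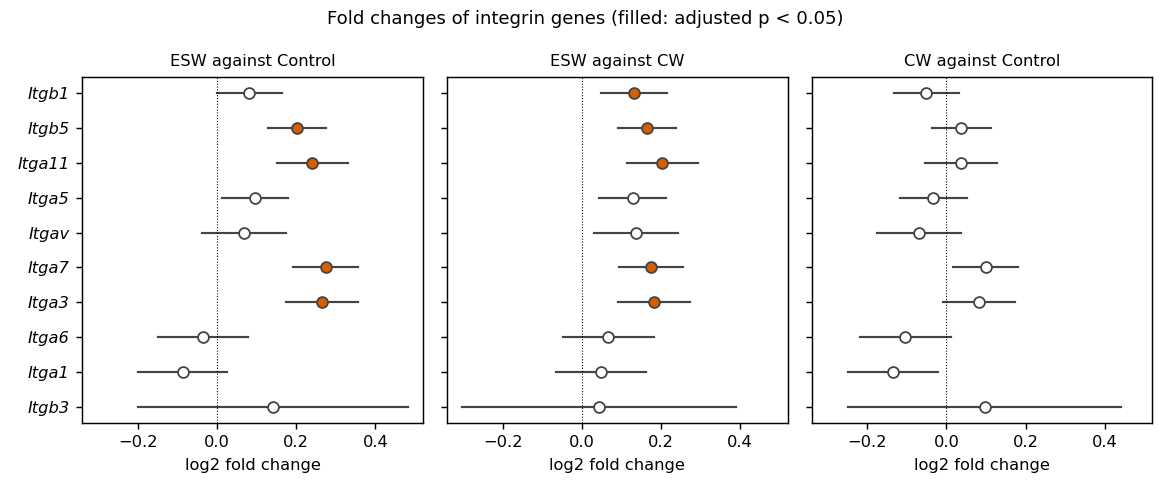
Log2 fold change of each integrin gene in the 3 comparisons, with its 95% interval from edgeR; filled points have an adjusted p under 0.05. Itgb5, Itga11, Itga7 and Itga3 are filled in both comparisons of ESW, Itgb1 is filled against CW, and 0 genes are filled for CW against Control.

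The comparison of CW with Control asked what the control water did. Of the 10 genes 0 were called by edgeR, where 0.177% of all tested genes were called, 0.0272% higher and 0.15% lower, and 0 were called by DESeq2 or limma-voom. At an unadjusted p under 0.05 edgeR gave 2 of the 10 genes, Itga7 and Itga1, and 1452 of the 14706 tested genes. With 10 genes the 2 shares cannot be usefully compared. Itga7 had 206, 192 and 199 CPM in CW, against 191, 185 and 182 CPM in Control, and these libraries were separate in CPM (log2 fold change 0.10, edgeR adjusted p = 0.392). Itga3 was likewise separate in CPM, with 136, 138 and 136 CPM in CW, against 129, 131 and 127 CPM in Control (log2 fold change 0.08, edgeR adjusted p = 0.558). In TPM, however, CW and Control overlapped for both genes. Among all tested genes 14.7% were separate in CPM between these groups, 7.13% with CW higher and 7.56% with CW lower. Itga1 had 103, 92.7 and 97.5 CPM in CW, against 114, 97.7 and 109.6 CPM in Control (log2 fold change -0.14, 95% interval -0.25 to -0.02, edgeR adjusted p = 0.40). For all 4 genes called against Control the CW mean in CPM lay between those of ESW and Control. It was 199 ± 7.08 CPM for Itga7, 137 ± 0.999 CPM for Itga3, 773 ± 13.3 CPM for Itgb5 and 765 ± 36.0 CPM for Itga11 (SD, n = 3 each). The genes were picked because ESW exceeded Control, so this order is only a description. With average transcript length offsets the log2 fold change of Itgb5 in CW against Control was -0.011, that of Itga7 0.052 and that of Itga3 0.030. The single test over the 3 groups called the same 4 genes as ESW against Control, with edgeR adjusted p from 0.000889 for Itga7 to 0.00287 for Itga11, where 9.58% of all tested genes were called.

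The makeup of the α chains was compared within libraries, where scaling cancels out. Itga11 TPM was 11.2, 11.8 and 11.9 times Itga1 TPM in ESW, against 9.70, 9.72 and 10.1 times in CW and 9.04, 9.62 and 8.77 times in Control. This ratio of the collagen-binding chains was higher in every ESW library than in any other library. Itga7 TPM was 2.59, 2.85 and 2.44 times Itga6 TPM in ESW, against 2.58, 2.31 and 2.48 times in CW and 2.09, 2.41 and 2.07 times in Control. For these laminin-binding chains ESW was separate from Control and overlapped CW. The RGD-binding chains held 42.5%, 42.6% and 42.5% of the α TPM in ESW, against 42.9%, 43.4% and 42.9% in CW and 44.2%, 43.9% and 43.4% in Control, the lowest shares being those of ESW. Over all 18 α chains the sum was 802 ± 48.3 TPM in ESW, 724 ± 30.9 TPM in CW and 732 ± 42.2 TPM in Control (SD, n = 3 each), with overlap between groups. These ratios were chosen with the gene values known and are given without a test.

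Most of the 10 genes were read through 1 annotated transcript. Its share of the gene's TPM was at least 95.1% in every library for Itgb1, Itgb5, Itga3, Itga5, Itga6 and Itga11. Itgb5 and Itga11 had only 1 annotated transcript each, so their share of 100% was fixed by the annotation. Itga1, Itga7, Itgav and the low Itgb3 had 2 transcripts that each held at least 10% of the gene's TPM over the 9 libraries together, though not in each library, and the first 3, with a mean of at least 10 TPM, were followed further by a rule set after their values were seen. For Itga1 the longer transcript of 10859 bases held 69.9%, 72.5% and 70.5% in ESW, against 63.3%, 64.2% and 65.9% in CW and 65.9%, 65.8% and 64.0% in Control. All 3 ESW libraries were above the other 6. For Itga7 the transcript of 4070 bases held 78.5%, 76.5% and 77.5% in ESW, against 75.8%, 68.6% and 70.6% in CW and 71.1%, 72.4% and 69.7% in Control, again with ESW above the rest. Its transcript of 3922 bases differed in pattern, with 14.6%, 16.9% and 16.8% in ESW and 14.2%, 16.4% and 15.0% in CW. In Control that transcript held 24.1%, 18.9% and 20.3%, so CW overlapped ESW and both waters lay below Control. For Itgav the transcript of 6961 bases, which is 3 bases longer than its partner, held 55.2%, 64.1% and 61.7% in ESW, against 72.5%, 65.3% and 64.5% in CW and 61.4%, 63.2% and 56.5% in Control.

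An exact permutation test over the 3 groups, two-sided, gave p = 0.0214 for Itga1, p = 0.05 for Itga7 and p = 0.129 for Itgav, where the smallest p possible was 0.00357. Adjusted over these 3 genes the exact permutation p-values were 0.0643, 0.075 and 0.129, so that none passed. With 3 against 3 libraries the smallest exact permutation p is 0.1, which Itga1 and Itga7 reached for ESW against each of the other groups and Itgav for ESW against CW and CW against Control. Salmon assigns reads shared by transcripts of 1 gene by estimate, so these shares are less certain than the gene totals.

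**Figure D4:**
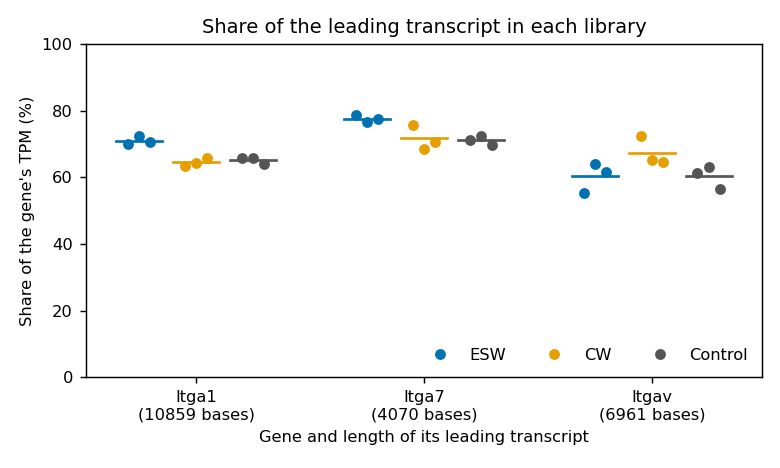
Share of the gene's TPM held by its leading transcript, in percent, for Itga1, Itga7 and Itgav; points are libraries, short bars are group means, and the length of the transcript is given below each gene. The ESW points of Itga1 (69.9% to 72.5%) and Itga7 (76.5% to 78.5%) lie above those of CW and Control.

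Across the 9 libraries the called genes moved together. Over the 6 pairs among Itgb5, Itga3, Itga7 and Itga11 Pearson's r of log2 CPM ran from 0.88 to 0.96, against a range of -0.22 to 0.96 and a median of 0.55 over all 45 pairs of the 10 genes. The pairs share library and scaling, and these 4 genes were picked out by the group difference, so r is a description. The 3 genes most like Itgb1 among 8854 candidates were Ptpn11, which codes for the phosphatase SHP2, Lasp1, an actin-binding LIM protein, and Eif3c, an initiation factor subunit, with r of 0.98 over 9 libraries for each. For Itgav they were Wdr26, Niban1 and Plekhb2, with r of 0.98, 0.97 and 0.97. These are the highest of 8854 values over only 9 libraries, so r is a description here too, and a shared function was not tested.

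Of the other 16 integrin genes 12 could be tested. Itga4, which binds fibronectin and VCAM1, was the highest of them at 35.4 to 43.9 TPM, followed by Itga8 at 15.5 to 20.9 TPM and Itgax at 7.54 to 10.9 TPM, and the rest did not exceed 2.36 TPM in any library. Against Control 1 of the 12 was called, a share near the 8.04% of all tested genes. It was Itgae, whose chain binds E-cadherin, with 3.83 ± 0.693 CPM in ESW and 5.43 ± 0.552 CPM in Control (SD over 3 libraries), and its log2 fold change was -0.50 (edgeR adjusted p = 0.0287). Itga4 and Itga8 had log2 fold changes of -0.12 and -0.05 against Control (edgeR adjusted p = 0.184 and 0.713). Against CW 0 of the 12 were called by edgeR, where 8.14% of all tested genes were. An unadjusted edgeR p under 0.05 was found for 3 of the 12, and for 3514 of the 14706 tested genes.

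Genes of the matrix that integrins bind included many calls. Of 25 tested ligand genes 13 were called higher in ESW than in Control, 0 lower and 12 not called, with a median log2 fold change of 0.14, where 4.76% of all tested genes were called higher and 3.28% lower. This list and those below were chosen with earlier results of these data known and were not matched for level. Their shares of calls are therefore only a description. Laminin β2 (Lamb2), a ligand chain for the laminin receptors, lay at 342 ± 7.73 CPM in ESW and 270.3 ± 4.0 CPM in Control (SD, n = 3 each). Fibulin 5 (Fbln5), an RGD protein of elastic fibres, had a log2 fold change of 0.26, and Mfge8, an RGD protein bound by αv integrins, had 0.22. Tgfb1, whose latent form is bound by αv integrins, had 0.39, and the fibrillar collagens Col1a1 and Col1a2 had 0.29 and 0.22. Fibronectin (Fn1), named here after its value was seen, was at 14699 ± 692 CPM in ESW and 13716 ± 1111 CPM in Control and was not called (log2 fold change 0.10, edgeR adjusted p = 0.219). Vitronectin (Vtn) and laminin α2 (Lama2) were too low to be tested, with 9 and 16 reads over the 9 libraries. Against CW 13 of 25 were also called higher and 0 lower, where 4.15% of all tested genes were called higher and 3.99% lower, led by Mfge8 at 0.24 and Tgfb1 at 0.32, with Col3a1 at 0.22.

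Genes that switch integrins on or off gave 3 of 11 called higher against Control and 0 lower, where 8.04% of all tested genes were called. Against CW edgeR called 0 of 11, where 8.14% of all tested genes were called. At an unadjusted p under 0.05 edgeR gave 4 of the 11, and 3514 of the 14706 tested genes. The direction of the calls depended on the setting, since without ESW replicate 1 the calls against Control were 1 higher and 2 lower, and with a filter of 1 CPM in 3 libraries 3 higher and 2 lower. The 3 genes called against Control with all libraries were Sharpin, a binder of α tails that holds integrins inactive, at a log2 fold change of 0.25, Flna, the actin crosslinker filamin A that competes with talin, at 0.14, and Tln1, talin itself, at 0.15. Their CW comparison gave edgeR adjusted p of 0.0598, 0.0897 and 0.0959. Of 26 adhesion site proteins 6 were higher and 1 lower against Control, where 4.76% and 3.28% of all tested genes were. Tgfb1i1, the LIM protein Hic-5, was at 387 ± 7.98 CPM in ESW and 323 ± 8.55 CPM in Control (SD, n = 3 each). Zyx, Actn4 and Src, which code for zyxin, α-actinin 4 and the kinase Src, had log2 fold changes of 0.15, 0.14 and 0.16. Of the 2 PINCH genes, whose products bind the integrin-linked kinase, Lims2 was higher at 0.23 and Lims1 lower at -0.16. Against CW 5 were higher and 1 lower, where 4.15% and 3.99% of all tested genes were. The lower one was Itgb1bp2, the muscle protein melusin, at 2.32 ± 0.202 CPM in ESW and 3.39 ± 0.447 CPM in CW. Without ESW replicate 3, the called genes numbered 8 ligands, 1 adhesion protein and 1 activator or inhibitor against Control, and 7, 1 and 0 against CW. Without Control replicate 2 they numbered 8, 4 and 1 against Control, and without CW replicate 2 they numbered 8, 1 and 0 against CW. With transcript length offsets the 7 adhesion calls against Control fell to 1, and the 6 against CW to 3, as they did with the replicate block. Leaving out ESW replicate 2, CW replicate 1 or CW replicate 3 gave 2, 3 and 2 adhesion calls against CW. The lower call against CW, Itgb1bp2, was absent with limma-voom, the length offsets and the block.

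Calls among the other partners were few, and 8.04% and 8.14% of all tested genes were called against Control and CW. Membrane partners of integrins gave 1 call of 10 in each comparison, the tetraspanin gene Cd81, with log2 fold changes of 0.35 against Control and 0.26 against CW. Of 11 trafficking genes edgeR called 0 against Control, with 1 at an unadjusted p under 0.05, as were 3357 of the 14706 tested genes. Against CW it called 1, Rab21, a GTPase that binds α tails during endocytosis, at a log2 fold change of 0.17. In the dystroglycan complex, a laminin receptor separate from integrins, Dag1 was the 1 call of 12 in each comparison, at 0.19 against Control and 0.21 against CW. In CW against Control 0 genes of any of these lists were called by edgeR.

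**Figure D5:**
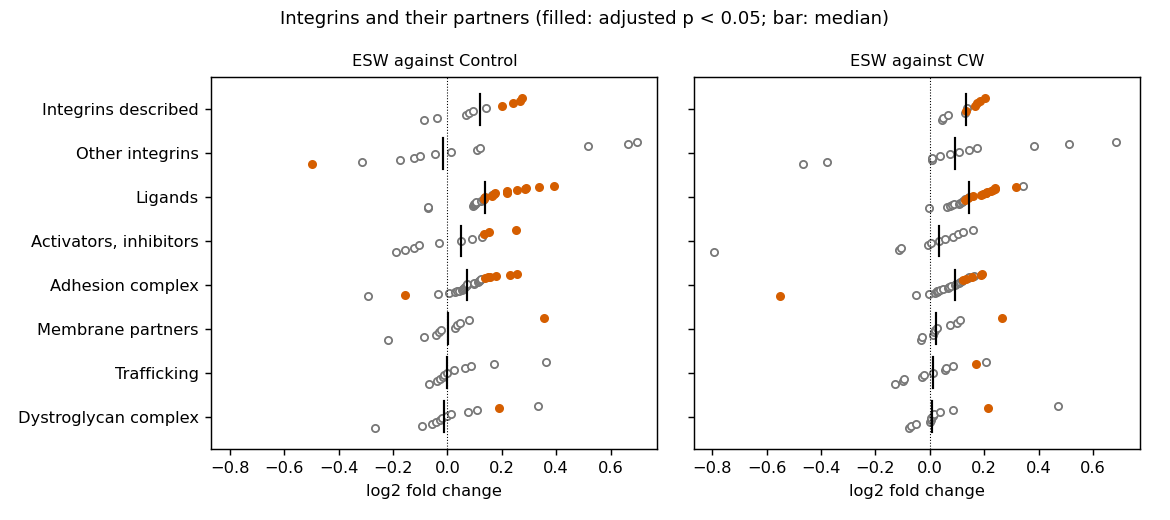
Log2 fold change of every tested gene of 8 lists in ESW against Control and ESW against CW; filled points have an adjusted p under 0.05 and the vertical bar is the median of the list. The 10 integrin genes and their ligands lie mostly to the right of 0, with medians of 0.12 and 0.14 against Control, and the trafficking and dystroglycan lists centre near 0.

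Collagen genes that mark fibroblasts moved with ESW as the called integrins did. The summed level of the 5 fibroblast markers was 54562 to 56596 CPM in ESW, against 46094 to 48333 CPM in CW and 45033 to 48134 CPM in Control. Within that list, which shares its collagens with the ligand list, Col1a1 and Col3a1 were called higher, while Dcn and Lum had log2 fold changes of 0.05 and 0.06 against Control and Pdgfra stayed under 0.569 CPM. The summed level of the 5 myoblast markers was 50.1 to 55.9 CPM in ESW, against 44.5 to 53.8 CPM in CW and 48.1 to 53.8 CPM in Control. The part of either cell character in the integrin values was not tested.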

How the data were processed

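Total RNA, extracted with the RNeasy Plus Mini kit, was sequenced on a NovaSeq X Plus, per the labels' protocols. Salmon 1.10.3 and DESeq2 (no version) are named in the submitters' processing notes; the build and the annotation release are not given in the sources used here. Each deposited table gives, per the file headers, estimated counts (fractional), TPM scaled by the authors' Salmon run to 1000000 per library, and another kind of value, the length and the effective length in bases of each of 114122 RefSeq transcripts. The deposited effective length exceeded the length for 17672 to 24491 transcripts per library.

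All transcripts were matched by accession to a RefSeq table of GRCr8, used for symbols and start regions, and counts were summed per gene and rounded. edgeR 4.0.16 in R 4.3.3 (filterByExpr, TMM, quasi-likelihood test, 1 mean per group, 9 libraries, 6 residual degrees of freedom) tested 14706 genes, with Benjamini-Hochberg adjustment over all of them. The common biological coefficient of variation was 4.84%. CPM are relative to TMM-scaled totals, and log2 CPM used a prior count of 2. Intervals of 95% used the degrees of freedom of the test (19.3). Replicates of a group differed beyond sampling noise (chi-square per degree of freedom at least 3.44). Alternatives were DESeq2 size factors, other filters, DESeq2 1.42.0, limma-voom 3.58.1, length offsets, a replicate block, fits of 2 groups and leaving out each library. Genes and lists were chosen with earlier results of these data known; from each list the up to 6 called genes with the smallest p could be named, and from Itgb1 and Itgav the 3 most alike genes of at least 10 CPM. The list alternatives were added after seeing the data. The fit was tested on simulated data: of 67 genes with a planted 1.2-fold change 55.2% were called for ESW against Control and 47.8% for ESW against CW, and 19 and 9 of 14304 unchanged genes were called.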

Additional observations from a re-analysis of the deposited data

How the results depend on the processing

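Over the 10 genes, 3 comparisons and 17 alternatives, 476 of 510 values kept direction and side of the threshold, 16 lost and 10 gained a call and 8 changed sign, all 8 for genes not called. The causes were not tested unless stated. With average transcript length offsets 440 genes were called for ESW against Control, 1 for CW against Control and 629 over the 3 groups, and the log2 fold changes of Itgb3 and Itga1 (ESW against CW) and Itgb5 (CW against Control) became -0.075, -0.020 and -0.011. CW against Control gave 273 called genes without a filter, 80 with DESeq2 and 16 with only these groups. The test over the 3 groups gave 7 integrin genes without a filter. Leaving out 1 library gave 397 to 1544 called genes for ESW against Control, 314 to 1486 for ESW against CW, 5 to 51 for CW against Control and 398 to 1662 over the 3 groups, and 4 to 5, 1 to 7, 0 to 0 and 4 to 6 integrin genes. It also moved the uncalled log2 fold changes across 0 for Itga6 in ESW against Control (-0.11 to 0.021), Itgb3 in ESW against CW (-0.050 to 0.15) and, in CW against Control, Itgb3 (-0.012 to 0.21) and Itga5 (-0.050 to 0.0014). The libraries whose omission moved the number of called genes by over 1.5 times were ESW replicate 3 and Control replicates 2 and 3 against Control, replicates 2 and 3 of both ESW and CW in ESW against CW, each of the 6 libraries in CW against Control, and ESW replicates 2 and 3 and CW replicates 2 and 3 over the 3 groups.

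Same-numbered libraries did not deviate together (correlation of deviations -0.12 to 0.04). This check cannot show whether libraries of the same number were handled together. With the replicate block 971, 949, 25 and 1088 genes were called in the 3 comparisons and over the 3 groups, and 4, 4, 0 and 4 integrin genes. Itgb3 had the fewest reads of the 10 genes.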
